A study of Arabidopsis thaliana with 9 samples.

Results

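Indole glucosinolates and camalexin are defence compounds that Arabidopsis thaliana makes from tryptophan, and 10 genes of their synthesis were followed across leaves grown with silver ions, silver nanoparticles or neither. The 10 genes were taken by gene identifier from a table of 38202 gene rows. They are the regulators MYB34 (AT5G60890) and MYB51 (AT1G18570), the entry enzymes CYP79B2 (AT4G39950) and CYP79B3 (AT2G22330), the glucosinolate enzymes CYP83B1 (AT4G31500), SUR1 (AT2G20610) and CYP81F2 (AT5G57220), and the camalexin branch enzymes CYP71A12 (AT2G30750), CYP71A13 (AT2G30770) and PAD3 (AT3G26830). All 10 passed the filter on low counts, as did 19889 rows in all. CYP71A13 passed on few counts and only through silver libraries, its CK libraries having 7, 3 and 3 counts.

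The plants were of the ecotype Columbia and were kept for 6 days in MS medium, a common culture medium for plants. 3 libraries came from the group named CK, taken here as plants without silver because no other control is named, 3 from plants given silver ions (Ag+) and 3 from plants given silver nanoparticles (AgNPs). Neither the dose nor how long the silver was present is stated, no mutant or transgene is named, and the organ is given in the source field as leaves. RNA was pooled before the libraries were made, and no label says that libraries of a group stem from different cultures, so the p-values below measure the spread between these samples only, which may be technical.

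Tryptophan is turned into indole-3-acetaldoxime by the cytochrome P450 enzymes CYP79B2 and CYP79B3, and the oxime is the branch point. CYP83B1 draws it towards indole glucosinolates, sulfur-rich glucosides that are cleaved when tissue is wounded or attacked, whereas CYP71A12 and CYP71A13 turn it into indole-3-acetonitrile, from which camalexin, the characteristic phytoalexin of this species, is completed by PAD3. The MYB factors switch on the glucosinolate side, and in leaves camalexin genes are best known for their low level in unchallenged tissue and their activation by pathogens and some heavy metals.

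The libraries held 16884010 to 19876151 counts each. The 9 leaf markers, photosynthesis genes, made up 25070.7 to 36263.6 CPM (counts scaled by library size) in CK, 40790.4 to 47673.5 in Ag+ and 28789.8 to 40306.7 in AgNPs. Leaf transcripts were thus abundant in all 9 libraries, and their sum was higher in every Ag+ library than in every CK library. This rise was uneven over the list. The light-harvesting genes LHCB1.2, LHCB2.1 and LHCB3 had log2 fold changes of 1.76, 2.62 and 1.83 with Ag+ against CK. The remaining leaf markers lay between 0.10 and 0.36. Of 22 root markers, the sum lay between 1876 and 2035 CPM in CK and between 2142 and 3286 CPM in the 6 silver libraries. Almost all of it came from PYK10, a beta-glucosidase gene. Fits below with the root-marker sum as a covariate thus adjust mainly for the level of PYK10, not for root RNA as a whole. Without PYK10 the sum was 88.87 CPM in AgNPs 1 and 16.3 to 33.61 CPM in the other 8 libraries. Most root markers were thus low but present, with 3 of the 22 at 0 in Ag+ 1 and 0 or 1 in every other library. The root iron transporter gene IRT1 was an exception, at 0 in 7 of 9 libraries. Heat-shock genes (11 genes) summed to 1023 CPM in CK 3, 1113 in AgNPs 2 and 1471 in AgNPs 3, and to 74.17 to 322.6 CPM in the other 6 libraries. In such bulk samples, fewer cells of a type and less RNA per cell cannot be told apart.

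Per kilobase of transcript, CYP83B1 had the highest mean level of the 10 genes in every group, with a mean of 115 CPM per kb in CK (libraries at 102 to 136), 150 ± 36.6 (SD, n = 3) in Ag+ and 252 ± 55 in AgNPs. CYP71A13 had the lowest, with 0.15 ± 0.0718, 0.857 ± 0.662 and 0.291 ± 0.16 CPM per kb in the same order of groups. In CK the order from high to low was CYP83B1, CYP81F2, MYB51, SUR1, CYP79B2, CYP79B3, MYB34, CYP71A12, PAD3 and CYP71A13, and the libraries of neighbours overlapped in 7 of the 9 steps. The steps without overlap there were CYP79B2 (24.2 to 31.2 CPM per kb) over CYP79B3 (11 to 20.5) and PAD3 over CYP71A13. CYP71A12 was followed by PAD3 and CYP71A13 alone in CK, at 5.97 ± 1.26 CPM per kb, behind CYP83B1 and CYP79B2 alone in Ag+, at 42.2 ± 24.9, and between MYB51 and CYP79B3 in AgNPs, at 38.9 ± 28.5, although its libraries overlapped those of both neighbours in each silver group.

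**Figure D1:**
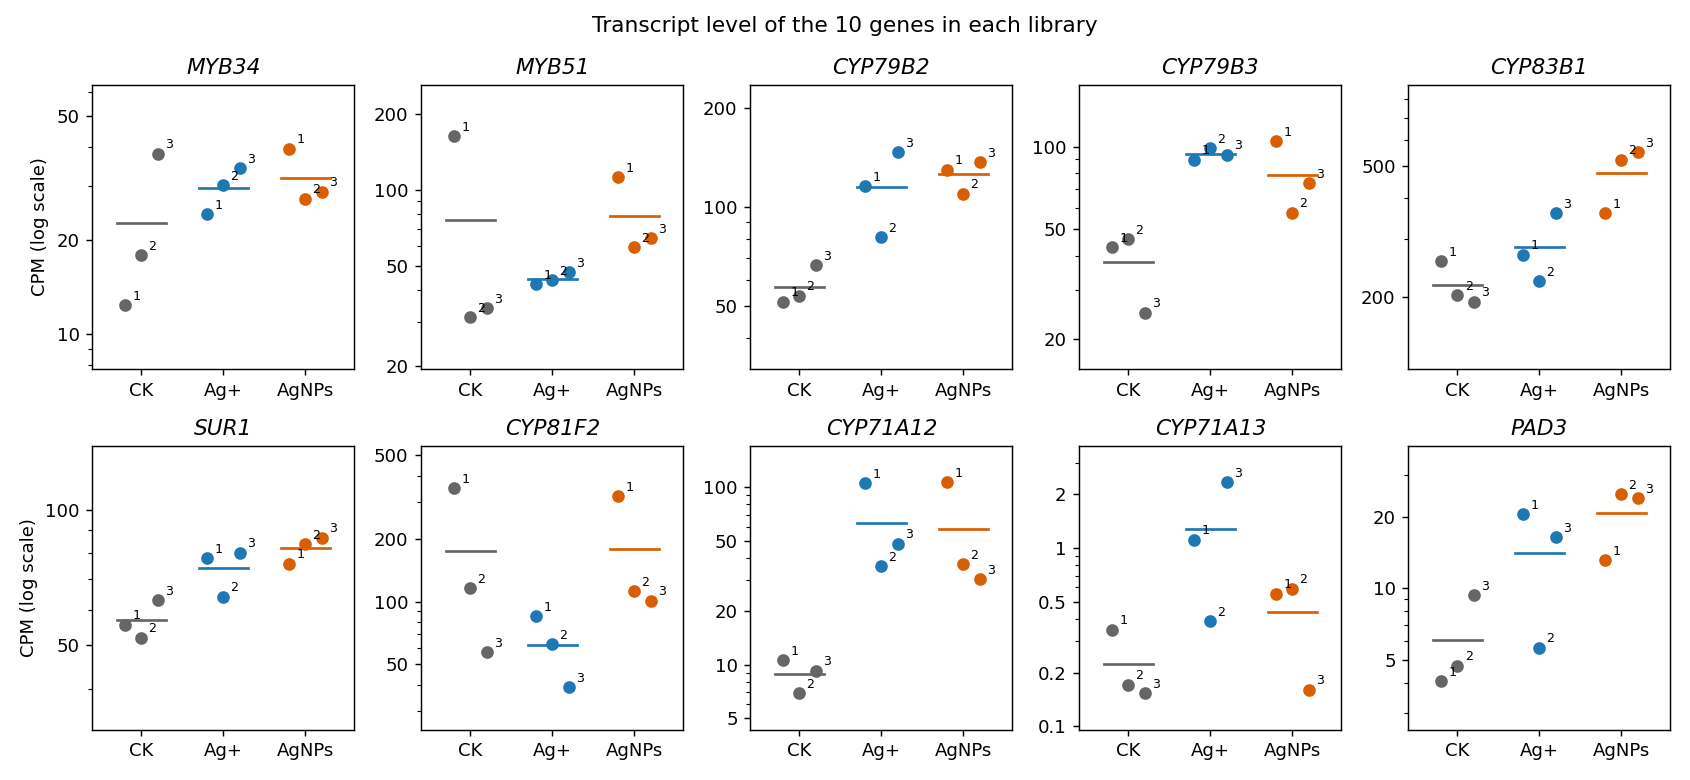
CPM of each of the 10 genes (log axis, a range of its own in each panel) in the 3 libraries of CK, Ag+ and AgNPs; points are libraries with their number beside them and bars are group means. CYP71A12 lies between 6.89 and 10.6 CPM in CK and between 30.4 and 107 CPM in the 6 silver libraries, whereas MYB51 and CYP81F2 are highest in CK 1 and AgNPs 1.

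Against CK, 3 of the 10 genes rose with Ag+ and none fell, and 3 rose with AgNPs and none fell. CYP79B2 and CYP71A12 were called in both comparisons, CYP79B3 with Ag+ and CYP83B1 with AgNPs. DESeq2 called the same genes and, in addition, CYP71A13 with Ag+ and CYP79B3, SUR1 and PAD3 with AgNPs, all higher. With the summed level of heat-shock genes as a covariate, CYP81F2 was called lower with Ag+, the single lower call of a member against CK under the alternatives tried. The counts of 3 come from edgeR's quasi-likelihood test with Benjamini-Hochberg adjustment over all 19889 genes tested, at an adjusted p under 0.05. Of all genes tested, 5.57% were called with Ag+ (3.52% higher and 2.05% lower) and 3.32% with AgNPs (2.23% higher and 1.09% lower). At an unadjusted p under 0.05 there were 6 of the 10 genes in each comparison, against 19.2% of all genes with Ag+ and 17% with AgNPs. The libraries of 5 of the 10 genes lay above all CK libraries in Ag+ (12.7% of all genes), and those of 6 did in AgNPs (11.4% of all genes). The 5 include CYP71A13, where Ag+ 2 and CK 1 both had 7 counts and differed by library scaling alone (0.389 and 0.347 CPM). CYP71A13 is also among the 6 genes at an unadjusted p under 0.05 with Ag+. It passed the filter only through silver libraries, so it adds no support to either count. None of the 10 lay below all CK libraries in either comparison (10.7% and 11.1% of all genes). The part of the higher leaf sum in Ag+ was not tested. The median log2 fold change of the 10 genes was 0.69 with Ag+ and 0.99 with AgNPs, against medians of -0.01 and 0 over all genes tested. Both comparisons use the same 3 CK libraries, so their values are given side by side and are not independent of each other.

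**Figure D2:**
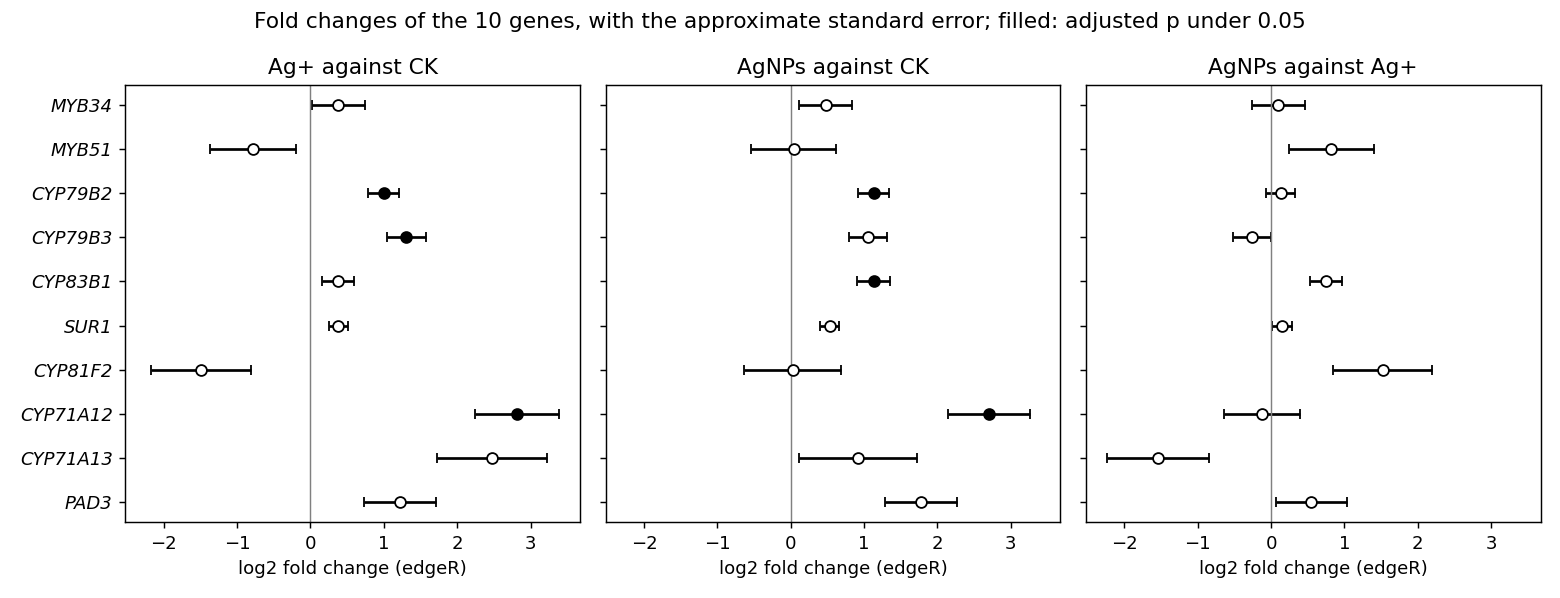
log2 fold changes of the 10 genes from the edgeR fit in the 3 comparisons; bars are the approximate standard error and filled points have an adjusted p under 0.05. With Ag+ the filled points are CYP79B2 (1.00), CYP79B3 (1.31) and CYP71A12 (2.82), with AgNPs they are CYP79B2 (1.13), CYP83B1 (1.13) and CYP71A12 (2.70), and none is filled between the silver forms.

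The 2 regulators were not called in any comparison. MYB34, an R2R3-MYB factor that activates the tryptophan and indole glucosinolate genes, had 12.4, 17.9 and 37.9 CPM in CK 1 to 3, 24.3, 30.1 and 34.1 CPM in Ag+ 1 to 3, and 39.4, 27.2 and 28.7 CPM in AgNPs 1 to 3. CK 1 and CK 2 lay below all silver libraries while CK 3 lay among them. Its log2 fold change was 0.38 (SE 0.36, adjusted p = 0.654, edgeR) with Ag+ and 0.48 (SE 0.36, adjusted p = 0.574) with AgNPs. Without CK 3, the CK library with most heat-shock RNA, these became 0.95 (adjusted p = 0.0438) and 1.08 (adjusted p = 0.0359).

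MYB51, the leaf regulator of the same glucosinolates and a gene that responds to pathogen signals, had 163, 31.2 and 34 CPM in CK, 42.3, 43.8 and 47.2 CPM in Ag+ and 112, 59.4 and 64.3 CPM in AgNPs. The 3 Ag+ libraries were close together, and a single CK library, CK 1, stood far above the other 2. The log2 fold change was -0.78 (SE 0.58, adjusted p = 0.544, edgeR) with Ag+ and 0.04 (SE 0.58, adjusted p = 0.982) with AgNPs, and without CK 1 these were 0.45 (adjusted p = 0.442) and 1.27 (adjusted p = 0.0411). All AgNPs libraries lay above all Ag+ libraries (log2 fold change 0.82, SE 0.58, adjusted p = 0.546).

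Of the entry enzymes, CYP79B2 rose with both forms of silver and CYP79B3 with Ag+. CYP79B2 lies on chromosome 4 (18525042 to 18527602, plus strand, 3 exons) and CYP79B3 on chromosome 2 (9488413 to 9491404, plus strand, 2 exons) of RefSeq's TAIR10.1 assembly. Their coding sequences were 78.2% identical, with a longest identical run of 32 bases, and shared no stretch of 150 bases, the length of a read. The 250 bases before each annotated start are printed because both genes lay higher in every silver library than in any CK library and the windows share 2 runs of at least 15 identical bases. Capitals mark these runs of 17 and 22 bases, which are parted by 1 differing base. They lie 95 to 56 bases before the start of CYP79B2 (chr4:18524792-18525041, plus strand) and 169 to 130 bases before that of CYP79B3 (chr2:9488163-9488412, plus strand).
CYP79B2: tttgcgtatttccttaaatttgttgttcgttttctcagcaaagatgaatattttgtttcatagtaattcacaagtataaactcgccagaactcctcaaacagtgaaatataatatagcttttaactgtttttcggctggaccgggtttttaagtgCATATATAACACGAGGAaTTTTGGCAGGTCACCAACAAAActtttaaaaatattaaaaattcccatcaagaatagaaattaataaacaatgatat
CYP79B3: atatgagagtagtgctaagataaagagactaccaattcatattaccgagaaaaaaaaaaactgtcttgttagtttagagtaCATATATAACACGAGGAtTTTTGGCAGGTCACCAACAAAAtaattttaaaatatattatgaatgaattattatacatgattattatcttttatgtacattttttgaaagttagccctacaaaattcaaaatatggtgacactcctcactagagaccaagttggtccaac
Each run occurred in 2 of 27443 RefSeq promoter windows of this length, on either strand, that is in these copies alone. Over the 45 pairs of the 10 promoters, the longest shared run was 22 bases for CYP79B2 with CYP79B3 and 23 for CYP71A12 with CYP71A13, and 7 to 13 bases (median 8) for the other 43 pairs. The W-box letters TTGACC or TTGACT, searched on both strands, were found in 2 of the 10 windows, once in SUR1 and at 2 places in CYP81F2, and in 28.4% of all 27443 windows. The G-box letters CACGTG, which read the same on both strands, were found in SUR1 alone of the 10, and in 6.49% of all windows.

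CYP79B2 had 51.7, 53.9 and 66.6 CPM in CK 1 to 3, 116, 81.1 and 147 CPM in Ag+ 1 to 3, and 130, 110 and 137 CPM in AgNPs 1 to 3. Every silver library lay above every CK library. The rise was 2.00-fold with Ag+ (log2 fold change 1.00, SE 0.21, adjusted p = 0.0225, edgeR) and 2.19-fold with AgNPs (1.13, SE 0.21, adjusted p = 0.018). The Ag+ call was lost without CK 1 (adjusted p = 0.0774), CK 2 (0.0905), Ag+ 1 (0.073) or Ag+ 3 (0.0625), and the AgNPs call without CK 1 (0.0551), CK 2 (0.0897) or AgNPs 3 (0.0678), with the lowest log2 fold change of the 9 such fits at 0.78 and 1.06.

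CYP79B3 had 43.1, 46 and 24.8 CPM in CK, 89.7, 98.7 and 93.5 CPM in Ag+ and 105, 57.4 and 73.7 CPM in AgNPs. Here too the CK libraries lay below all others, and the Ag+ libraries were the closest together. The rise with Ag+ was 2.47-fold (log2 fold change 1.31, SE 0.26, adjusted p = 0.0223, edgeR). It was not called without Ag+ 1 (adjusted p = 0.0664), Ag+ 2 (0.0817) or Ag+ 3 (0.0597). With AgNPs the log2 fold change was 1.05 (SE 0.26, adjusted p = 0.067), which missed the threshold, also with any 1 library left out. DESeq2 called it (1.06, adjusted p = 0.00301), as did edgeR with the heat-shock sum as a covariate (1.44, adjusted p = 0.00286) and without AgNPs 1 and CK 3 (0.56, adjusted p = 0.0462). With the counts of both copies summed, the log2 fold change was 1.13 (adjusted p = 0.00343) with Ag+ and 1.10 (adjusted p = 0.00532) with AgNPs. With the root-marker sum as a covariate, the adjusted p with Ag+ became 0.0589 for CYP79B2 and 0.117 for CYP79B3, and with AgNPs 0.0759 for CYP79B2. That sum was itself higher in every silver library than in every CK library. With the sum without PYK10, both genes were called with Ag+ and CYP79B2 with AgNPs.

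On the glucosinolate side, CYP83B1 rose with AgNPs. This enzyme, on chromosome 4, oxidizes indole-3-acetaldoxime and so commits it to glucosinolates. It had 258, 203 and 194 CPM in CK, 270, 224 and 361 CPM in Ag+ and 360, 525 and 553 CPM in AgNPs. The AgNPs libraries lay above all CK libraries, and the Ag+ libraries overlapped both other groups, Ag+ 3 and AgNPs 1 being within 1 CPM of each other. The fold change was 2.19 with AgNPs (log2 fold change 1.13, SE 0.22, adjusted p = 0.023, edgeR) and 1.30 with Ag+ (0.38, SE 0.22, adjusted p = 0.382).

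The AgNPs call of CYP83B1 was lost without CK 2 (adjusted p = 0.112), CK 3 (0.0543), AgNPs 2 (0.0954) or AgNPs 3 (0.0847). Its highest libraries, AgNPs 2 and AgNPs 3, were also those with the largest heat-shock sums, and with that sum as a covariate the log2 fold change was 0.94 (adjusted p = 0.0669). Between the silver forms CYP83B1 had the smallest adjusted p of the 10 genes (0.154 by edgeR, for a log2 fold change of 0.75 and an SE of 0.22). Without AgNPs 1 it was 0.92 (adjusted p = 0.0498), and DESeq2 gave 0.77 (adjusted p = 0.0278).

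SUR1, the carbon-sulfur lyase that acts after CYP83B1 and serves aliphatic glucosinolates as well, had 55.6, 52 and 63 CPM in CK, 78.1, 64.1 and 80.3 CPM in Ag+ and 75.9, 83.9 and 86.6 CPM in AgNPs. All silver libraries were above all CK libraries, although Ag+ 2 exceeded CK 3 only narrowly. The log2 fold change was 0.38 (SE 0.13, adjusted p = 0.124, edgeR) with Ag+ and 0.53 (SE 0.13, adjusted p = 0.0549) with AgNPs, neither called by edgeR. With AgNPs it was called by DESeq2 (0.54, adjusted p = 0.00653) and by edgeR without CK 3 (adjusted p = 0.0386), and with Ag+ by edgeR with the heat-shock sum as a covariate (0.48, adjusted p = 0.0203). SUR1 had the tightest replicates of the 10 genes, with a within-group SD of 0.14 on the log2 scale against a median of 0.25 over all genes tested.

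CYP81F2, which hydroxylates the indole ring of the finished glucosinolate and is needed for its role in pathogen defence, had 348, 116 and 57.1 CPM in CK, 84.8, 62.3 and 39 CPM in Ag+ and 320, 112 and 101 CPM in AgNPs. CK 1 and AgNPs 1 were about 3 times as high as the next library, CK 2. The log2 fold change was -1.49 (SE 0.68, adjusted p = 0.276, edgeR) with Ag+, 0.03 (SE 0.66, adjusted p = 0.989) with AgNPs, and 1.52 (SE 0.68, adjusted p = 0.341) for AgNPs against Ag+, where the libraries did not overlap. With the heat-shock sum as a covariate it was called, at -1.98 (adjusted p = 0.0286) with Ag+ against CK and 3.14 (adjusted p = 0.0388) for AgNPs against Ag+, and under no other alternative tried. Its within-group SD of 0.98 on the log2 scale was larger than that of 95.8% of the genes tested.

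In the camalexin branch CYP71A12 had the largest log2 fold change of the 10 genes against CK with both forms of silver, in the fit of all 9 libraries. CYP71A12 (chromosome 2, 13099486 to 13101371) and CYP71A13 (13109909 to 13111988) are neighbouring copies on the minus strand with 4 exons each. Their coding sequences, of 1494 bases each, differed at 144 positions (90.4% identity). The longest identical run was 59 bases, and none of the 1345 windows of 150 bases occurred in both. The first 120 coding bases are printed to show how finely the differences are spread, with the 13 differing bases in capitals.
CYP71A12: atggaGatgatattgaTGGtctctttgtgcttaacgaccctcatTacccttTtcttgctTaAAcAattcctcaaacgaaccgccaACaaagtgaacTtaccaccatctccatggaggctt
CYP71A13: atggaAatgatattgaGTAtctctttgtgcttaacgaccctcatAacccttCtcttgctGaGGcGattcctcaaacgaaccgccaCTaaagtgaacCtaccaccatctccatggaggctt

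CYP71A12, which acts in making indole-3-carbonyl nitrile compounds as well as camalexin, had 10.6, 6.89 and 9.26 CPM in CK 1 to 3, 105, 35.8 and 48 CPM in Ag+ 1 to 3, and 107, 36.9 and 30.4 CPM in AgNPs 1 to 3. The silver libraries all lay above CK, with Ag+ 1 and AgNPs 1 above the other silver libraries. The rise was 7.05-fold with Ag+ (log2 fold change 2.82, SE 0.57, adjusted p = 0.0243, edgeR) and 6.49-fold with AgNPs (2.70, SE 0.56, adjusted p = 0.0378). Between the silver forms the log2 fold change was -0.12 (SE 0.52, adjusted p = 0.937), a difference smaller than the spread between replicates.

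The Ag+ call of CYP71A12 was lost without CK 1 (adjusted p = 0.0614), CK 2 (0.0932), CK 3 (0.0661) or Ag+ 1 (0.0687, log2 fold change 2.23). The AgNPs call was lost without CK 1 (0.0724), CK 2 (0.156), CK 3 (0.087), Ag+ 3 (0.0582), AgNPs 1 (0.0555, log2 fold change 1.91) or AgNPs 2 (0.0643). With no filter on low counts, neither was called (adjusted p = 0.0661 and 0.0966). With the root-marker sum as a covariate the log2 fold changes were 2.48 (adjusted p = 0.0903) and 1.97 (0.299), and with the heat-shock sum 2.49 (0.0637) and 2.97 (0.0412). The AgNPs call was also lost with the root-marker sum without PYK10, with only the 6 libraries compared, and without AgNPs 1 and CK 3. In these fits the Ag+ call held.

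CYP71A13, the main acetaldoxime dehydratase of camalexin synthesis, was covered by few reads, with counts of 7, 3 and 3 in CK, 17, 7 and 40 in Ag+ and 9, 12 and 3 in AgNPs. All Ag+ libraries lay above CK on the CPM scale (1.11, 0.389 and 2.34 against 0.347, 0.171 and 0.153 CPM), while AgNPs (0.553, 0.591 and 0.16 CPM) overlapped it. The log2 fold change was 2.47 (SE 0.75, adjusted p = 0.0949, edgeR) with Ag+ and 0.92 (SE 0.80, adjusted p = 0.637) with AgNPs, neither called by edgeR. DESeq2 called the Ag+ difference (adjusted p = 0.0346). There were 20.4 times as many CYP71A12 as CYP71A13 counts in Ag+ 3 and 193 times as many in AgNPs 1, the extremes of the 9 libraries. CYP71A13 overlaps AT2G30766 on the opposite strand, which had 6, 7 and 47 counts in CK, 0, 8 and 2 in Ag+ and 223, 393 and 218 in AgNPs. As no strand setting is stated for the counting, reads of both genes cannot be told apart where they overlap.

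**Figure D3:**
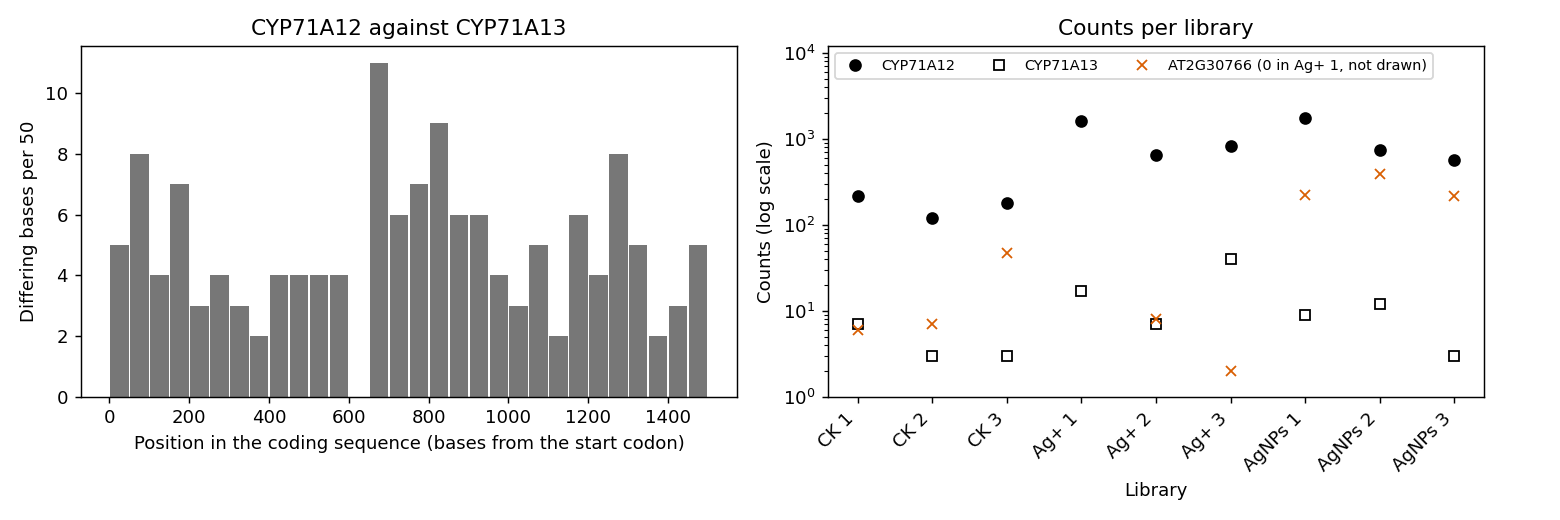
Left, bases that differ between the coding sequences of CYP71A12 and CYP71A13 per 50 bases, by position from the start codon (144 of 1494 in all). Right, counts (log axis) of CYP71A12, CYP71A13 and AT2G30766 in each library; CYP71A12 counts exceed those of CYP71A13 by 20.4 to 193 times, and AT2G30766 reaches 218 to 393 counts in AgNPs.

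PAD3, the cytochrome P450 that completes camalexin, had 4.07, 4.72 and 9.36 CPM in CK, 20.4, 5.61 and 16.4 CPM in Ag+ and 13.1, 24.8 and 23.9 CPM in AgNPs. The AgNPs libraries lay above all CK libraries, while Ag+ 2 fell among the CK libraries. The log2 fold change was 1.22 (SE 0.49, adjusted p = 0.218, edgeR) with Ag+ and 1.77 (SE 0.49, adjusted p = 0.0992) with AgNPs, neither called by edgeR. With the root-marker sum as a covariate both were called, at 2.04 (adjusted p = 0.0435) and 2.99 (adjusted p = 0.0311), and with the sum without PYK10 neither was, at 1.07 (adjusted p = 0.281) and 1.84 (adjusted p = 0.0972). PAD3 was also called with Ag+ with the heat-shock sum as a covariate (1.70, adjusted p = 0.0432), and with AgNPs by DESeq2 (1.77, adjusted p = 0.00379) and by edgeR without AgNPs 1 and CK 3 (2.47, adjusted p = 0.0499).

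Between the silver forms, none of the 10 genes was called by edgeR, where 0.684% of all genes tested were called, 0.508% higher in AgNPs and 0.176% lower. At an unadjusted p under 0.05 there was 1 (CYP83B1, against 14.8% of all genes), DESeq2 called 1 (CYP83B1) and limma voom none. AgNPs libraries lay above all Ag+ libraries for MYB51 and CYP81F2 (10.4% of all genes), and for no member below (11.7%). The median log2 fold change was 0.14, against -0.01 over all genes tested. A p that misses the threshold does not show that the 2 forms act alike.

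The replicates of the 10 genes were unequally tight. The within-group SD of log2 CPM exceeded that of 90% of the genes tested for CYP81F2 (0.98), CYP71A13 (0.98), MYB51 (0.83), CYP71A12 (0.75) and PAD3 (0.74). It was lower for MYB34 (0.52), CYP79B3 (0.38), CYP83B1 (0.31), CYP79B2 (0.29) and SUR1 (0.14). The first set holds all 3 camalexin branch genes, and the entry and core glucosinolate enzymes are in the second. For CYP71A13, with 3 to 40 counts in a library, counting noise is part of this spread.

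Of 47 other genes of the pathway, 45 were tested. CYP71A18 had 0 counts in all libraries and MYB122 at most 17. With Ag+, 5 of the 45 rose and none fell, against 3.52% of all genes tested called higher and 2.05% lower (median log2 fold change 0.01). With AgNPs 5 rose and none fell, against 2.23% and 1.09% of all genes tested. The median there was 0.30, with 39 of 45 above 0 against 49.6% of all genes tested. None was called between the silver forms by edgeR, against 0.684% of all genes tested. There, 10 had an unadjusted p under 0.05 (against 14.8% of all genes tested) and the median was 0.27. DESeq2 called 3 there (GSTF10, GTR1 and PEN2, higher in AgNPs) and limma voom none. Against CK, DESeq2 added MYC2 (higher) and IGMT2 (lower) to the calls with Ag+ and GSTF10 and TSA1 (both higher) to those with AgNPs, and limma voom lost ANAC042 with Ag+ (adjusted p = 0.0591). With the root-marker sum as a covariate, TSB2 was called with both forms and GSTF9 with Ag+, while the adjusted p of the other calls became 0.0701 (GSTF9 with AgNPs) to 0.244 (NIT3).

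**Figure D4:**
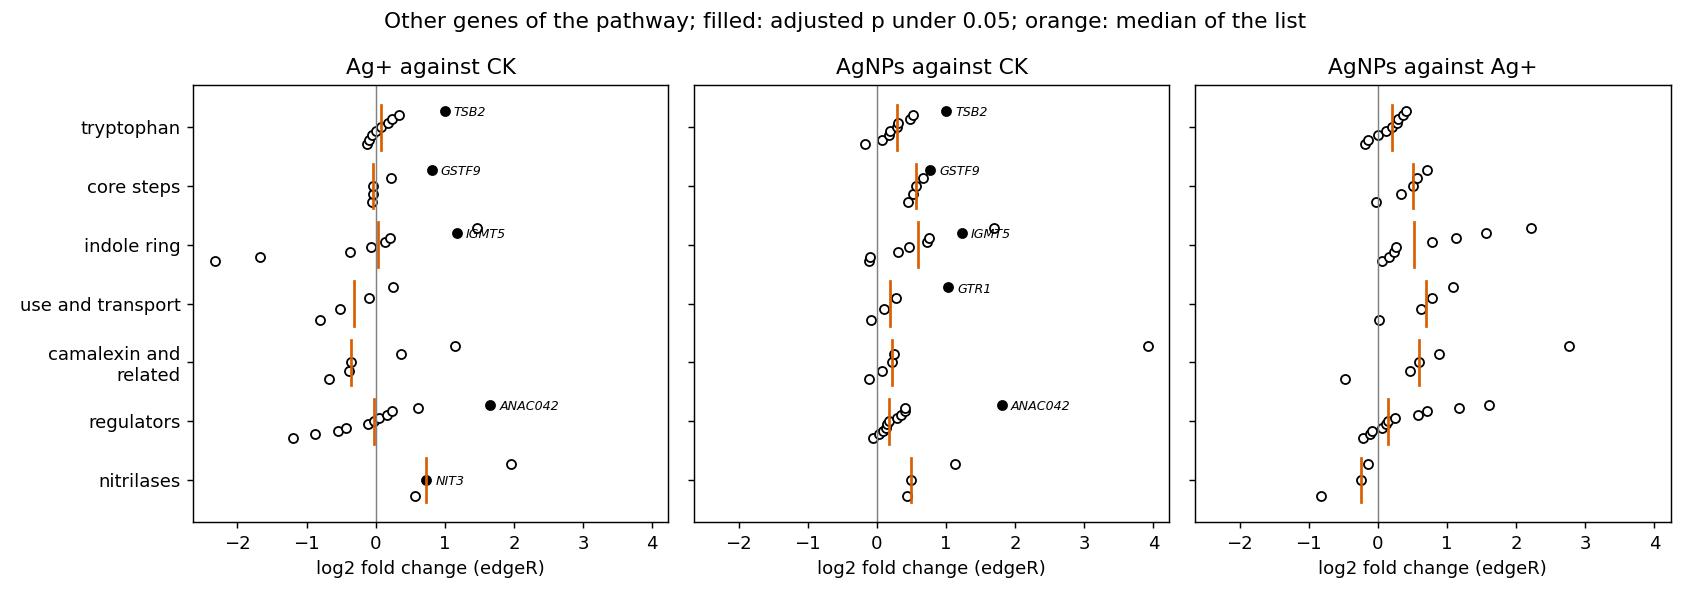
log2 fold changes (edgeR) of the 45 other pathway genes tested, by list and comparison; each point is a gene, filled where the adjusted p is under 0.05, and orange bars are list medians. TSB2, GSTF9, IGMT5 and ANAC042 are filled against CK with both forms of silver, NIT3 with Ag+ and GTR1 with AgNPs.

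Among 9 genes that supply tryptophan, TSB2, the second gene for the beta subunit of tryptophan synthase, rose with both. It had 8.44, 7.46 and 9.51 CPM in CK, 19.7, 13.6 and 17.5 CPM in Ag+ and 14.6, 18.4 and 17.9 CPM in AgNPs. All silver libraries lay above CK, with a log2 fold change of 1.00 in each comparison (SE 0.18, adjusted p = 0.0122 with Ag+ and 0.016 with AgNPs, edgeR). The first copy TSB1, 83.4% identical over the coding sequence, ranged from 406 to 461 CPM in CK, from 391 to 452 in Ag+ and from 480 to 519 in AgNPs and was not called. ASA1, the anthranilate synthase subunit at the head of the tryptophan branch, was at 0.18 (adjusted p = 0.519) and 0.29 (adjusted p = 0.276). The TSB2 call was lost without CK 2 (adjusted p = 0.0533 with Ag+), and, with AgNPs, without CK 2, AgNPs 2 or AgNPs 3 (adjusted p of up to 0.0755).

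Among 5 genes of the core steps, GSTF9, a glutathione transferase placed at the conjugation step, rose with both. It had 656, 599 and 603 CPM in CK, 1150, 1030 and 1070 CPM in Ag+ and 1120, 1040 and 1010 CPM in AgNPs. The 3 groups were tight and every silver library lay above CK, at a log2 fold change of 0.81 with Ag+ (SE 0.11, adjusted p = 0.00399, edgeR) and 0.77 with AgNPs (SE 0.11, adjusted p = 0.00646). Both calls held with each of the 9 libraries left out in turn. Its neighbour GSTF10, the glucosyltransferase gene UGT74B1 and the sulfotransferase gene SOT16 were not called by edgeR, at log2 fold changes of -0.04, 0.22 and -0.06 with Ag+ and 0.67, 0.57 and 0.45 with AgNPs.

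Among 8 further genes that modify the indole ring, IGMT5, a methyltransferase of indole glucosinolates, rose with both. It had 26.3, 20.8 and 29.7 CPM in CK, 42.4, 62.9 and 67.5 CPM in Ag+ and 76.1, 48.8 and 55.6 CPM in AgNPs. All silver libraries lay above CK, with log2 fold changes of 1.17 (SE 0.23, adjusted p = 0.0173, edgeR) and 1.23 (SE 0.23, adjusted p = 0.0183). Without a single library the adjusted p reached 0.0731 with Ag+ (not called without CK 1, CK 2, Ag+ 2 or Ag+ 3) and 0.0882 with AgNPs (CK 1, CK 2 or AgNPs 3). IGMT2, a methyltransferase gene of the same family, went the other way with Ag+, with 111, 28.5 and 24.2 CPM in CK and 16.8, 7.56 and 8.15 CPM in Ag+, but was not called (log2 fold change -2.33, SE 0.69, adjusted p = 0.0954). Its coding sequence shared no stretch of 150 bases with that of its copy IGMT1, the longest identical run being 71 bases.

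Of 4 genes of use and transport, GTR1, a transporter of glucosinolates, rose with AgNPs. It had 16.8, 10.2 and 12.2 CPM in CK, 15.2, 15.2 and 16.3 CPM in Ag+ and 25.6, 24.9 and 29.7 CPM in AgNPs. The AgNPs libraries stood above all others, with a log2 fold change of 1.03 against CK (SE 0.18, adjusted p = 0.0144, edgeR) and 0.78 against Ag+ (adjusted p = 0.0854). The first call was lost without CK 2 or AgNPs 3, at an adjusted p of up to 0.0614. Its partner GTR2 was at -0.10 and -0.09 (adjusted p = 0.765 and 0.82).

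Among 12 regulators, of which 11 were tested, ANAC042, a NAC factor known to promote camalexin synthesis, rose with both. It had 3.42, 1.48 and 1.79 CPM in CK, 11.3, 4.61 and 5.51 CPM in Ag+ and 8.92, 7.38 and 7.3 CPM in AgNPs. Every silver library lay above CK, at log2 fold changes of 1.66 (SE 0.40, adjusted p = 0.041, edgeR) and 1.81 (SE 0.40, adjusted p = 0.0401). With 1 library left out in turn, the Ag+ call held only without CK 1 or AgNPs 1 and the AgNPs call only without CK 1, Ag+ 1 or Ag+ 2, and the adjusted p otherwise reached 0.137 and 0.15. Of 5 further camalexin and indole carbonyl nitrile genes tested none was called. Of 3 nitrilases, which can act on indole-3-acetonitrile, NIT3 rose with Ag+ (log2 fold change 0.73, SE 0.19), at an adjusted p of 0.04996. This call held only without CK 3 or AgNPs 1, and the adjusted p reached 0.142 with another library left out.

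A different pattern joined part of the ring, defence and signalling genes. After the values had been seen, it was counted that CK 1 and AgNPs 1 were the 2 highest libraries in 2 of the 10 genes (MYB51 and CYP81F2) and in 10 of the 45 others, against 4.28% of all genes tested. The 10 were IGMT2, IGMT3, IGMT4, PEN2, PEN3, WRKY33, WRKY18, WRKY40, MPK3 and the berberine-family gene AT1G26380. WRKY33, a pathogen-activated factor that binds camalexin genes, had 114, 18.5 and 7.16 CPM in CK, 17.2, 20.7 and 22.7 CPM in Ag+ and 86.6, 42.7 and 56.1 CPM in AgNPs. CK 1 was thus more than 6 times as high as either other CK library. WRKY40 had 136 CPM in CK 1 and 108 in AgNPs 1, against 16.7 to 64.5 in the other 7 libraries. PEN2, a beta-thioglucosidase that cleaves indole glucosinolates in pathogen defence, had 982 and 881 CPM there, against 250 to 737.

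None of the 3 camalexin branch genes had CK 1 and AgNPs 1 as its highest pair of libraries. This could not have been otherwise, because in each of them all libraries of a silver group lay above every CK library. AT1G26380, listed with the further camalexin and indole carbonyl nitrile genes, did, at 53.7 and 47.2 CPM. PAD3 had its lowest level of all 9 libraries in CK 1. CYP71A12 had 10.6 CPM in CK 1 and 107 in AgNPs 1, in each case the highest library of the group. The marker lists covered root, leaf and heat-shock genes only, and the cause of the pattern in CK 1 and AgNPs 1 was not tested. CK 1 had 136.4 CPM of heat-shock RNA and 17.67 CPM of root markers without PYK10, and AgNPs 1 had 322.6 and 88.87 CPM.

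**Figure D5:**
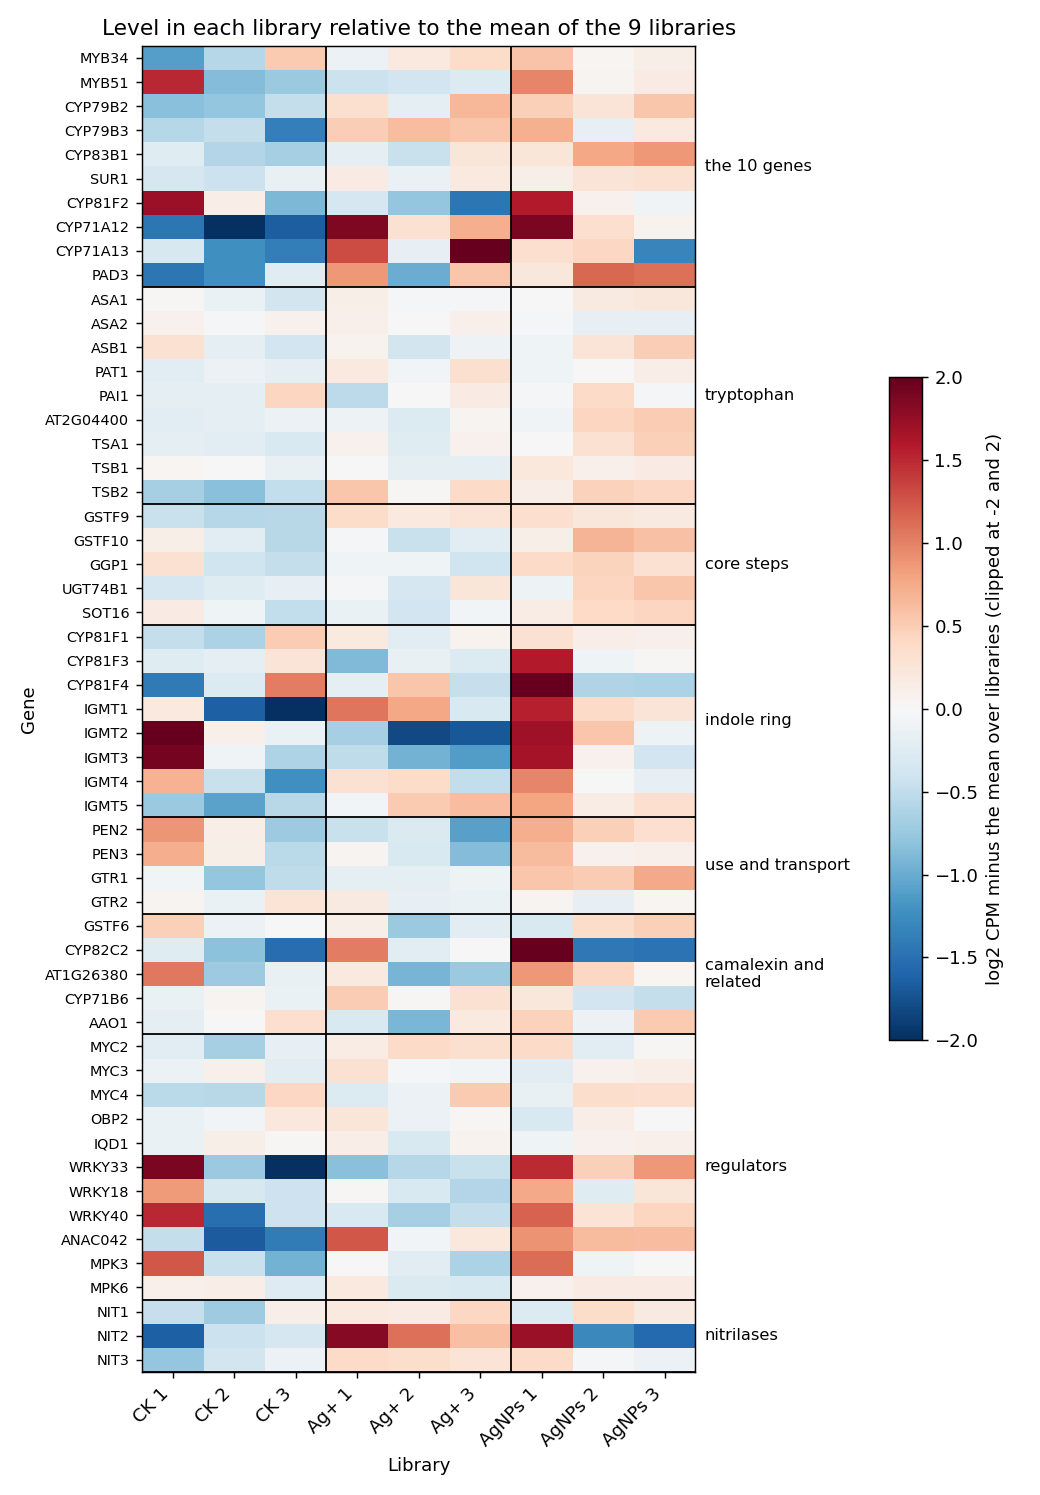
log2 CPM of the 10 genes and the 45 other pathway genes tested in each library, minus the gene's mean over the 9 libraries (red higher, blue lower, clipped at -2 and 2); rows are grouped by step and black lines part the groups. The rows of MYB51, CYP81F2, IGMT2, IGMT3, WRKY33 and WRKY40 are darkest red in CK 1 and AgNPs 1, while CYP71A12 is blue in all 3 CK libraries and TSB2 and GSTF9 are paler blue there.

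As a description of likeness, the z-scored log2 CPM of the 10 genes was averaged in each library, which gave -1.03 to -0.51 in CK, -0.24 to 0.50 in Ag+ and 0.44 to 0.83 in AgNPs. Of the 10 genes themselves, CYP79B2 (Pearson r = 0.93), SUR1 (0.90) and CYP71A12 (0.90) followed this mean most closely over the 9 libraries and CYP81F2 least (0.06). Each of the 10 is part of the mean, which raises its r, so these values cannot be set beside those of other genes. Among 18494 other genes with a mean of at least 1 CPM, the highest r values were those of RAP2.9 (AT4G06746, 0.972), CYP77A4 (AT5G04660, 0.965), UMAMIT44 (AT3G28130, 0.958), PXMT1 (AT1G66700, 0.956) and AT5G33370 (0.948). All of these values share the same 9 libraries, and the 5 genes were picked as the highest of many. RAP2.9, an AP2/ERF-family factor, had 2.28, 1.31 and 1.59 CPM in CK, 3.2, 2.44 and 3.81 CPM in Ag+ and 4.37, 3.59 and 4.53 CPM in AgNPs. PXMT1, a methyltransferase gene, had 0.46 to 0.893 CPM in CK and 1.22 to 4.3 CPM in the silver libraries.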

How the data were processed

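Gene expression was measured by RNA sequencing in 9 libraries, 3 each of CK, Ag+ and AgNPs. Per the labels' protocols, RNA was depleted of ribosomal RNA and read as pairs of 150 bases in 1 lane. HISAT2 and the build TAIR10 are named in the submitters' processing notes; which program, annotation and strand setting produced the counts is not stated there. The deposited table holds raw integer counts of reads for each gene, 1 column for every library and 0 columns of no sample. Reads shared by near-identical or overlapping genes may have been split or dropped.

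Of 38202 rows, 11452 were at 0 throughout, and filterByExpr kept 19889. The counts were fitted in edgeR 4.0.16 (R 4.3.3, TMM factors, robust quasi-likelihood, all 9 libraries, group as the only term), two-sided, with Benjamini-Hochberg adjustment and a threshold of 0.05. The biological coefficient of variation was 22.5%. CPM uses TMM-scaled library sizes, and the approximate SE is the log2 fold change over the square root of F. CPM per kb uses the longest RefSeq transcript, from 1494 to 2241 bases. Replicate pairs differed by 8.99 to 64.2 chi-square units per degree of freedom, above counting noise, so each library counted as 1 sample. Deviations from the group means correlated at r of 0.111 to 0.188 for same-numbered CK and Ag+ libraries, against -0.149 to 0.015 for other numbers. As deviations cancel out within a group, higher values for some pairs bring lower values for others. Ag+ 2 with AgNPs 1, of unlike number, reached 0.284. No label states a pairing, and these values do not establish one. The numbers were used as a replicate block in alternative fits only. The edgeR fit was tested on simulated data for Ag+ against CK, with the same dispersion for all genes. It recovered 48 of 100 genes with a log2 change of 1 and 97 of 100 with a log2 change of 2, with 7 false calls. Recovery of genes with a wider spread was not simulated. The other tools, covariates and sequence steps were not tested in that way.

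The named genes are all 10 members, other pathway genes that were called, and the 5 genes most like the members' mean profile; further pathway genes are named as examples chosen after their values were seen. Members, lists and tests were chosen with earlier results of these data known. Alternatives were DESeq2 1.42.0, limma 3.58.1 voom, other size factors, no filter, only 6 libraries, a replicate block, each library left out, AgNPs 1 and CK 3 left out, covariates, and summed copies. Sequences, coordinates and names come from RefSeq's TAIR10.1, matched by gene identifier (99 of 99 listed genes), with Python 3.11.15 and Biopython 1.88; the build named for the counts is TAIR10.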

Additional observations from a re-analysis of the deposited data

How the results depend on the processing

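For Ag+ against CK, a replicate block was tried on the 6 libraries compared (added after seeing the data). It called the same 3 members and 1639 genes, against 831 in those libraries without the block. Against the fit of all 9 libraries, it changed no call of a member or of the 5 other pathway genes called with Ag+. Against the 6 libraries without the block, it added ANAC042 (adjusted p = 0.00422 against 0.0829, edgeR) and NIT3. No such fit of 6 libraries was made for AgNPs. There, deviations of same-numbered libraries correlated at -0.115 to -0.043 with CK and -0.193 to 0.101 with Ag+. With a replicate block over all 9 libraries, 3, 4 and 0 of the 10 genes were called (Ag+ against CK, AgNPs against CK, AgNPs against Ag+; SUR1 with AgNPs added at an adjusted p of 0.0479; NIT3 with Ag+ lost at 0.0721), and 1238, 668 and 236 genes in all.

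In the same order, the edgeR fit of all 9 libraries called 3, 3 and 0 members and 1108, 660 and 136 genes. Leaving out each library gave 0 to 3, 0 to 3 and 0 to 1 members, and 419 to 1372, 224 to 809 and 0 to 444 genes. DESeq2 called 4, 6 and 1 members and 1901, 1447 and 868 genes, and limma voom 50 genes between the silver forms. With only the 6 libraries compared, 351 genes (AgNPs against CK) and 408 (AgNPs against Ag+) were called; CYP71A13 did not pass the filter there against CK. Without AgNPs 1 and CK 3 the counts were 4, 6 and 2 members (CYP79B3 lower and CYP83B1 higher between the silver forms) and 2003, 1603 and 1276 genes. With the heat-shock covariate they were 5, 3 and 1 members (CYP81F2 lower with Ag+ and higher in AgNPs than in Ag+, all others higher) and 1737, 1166 and 404 genes, with the root-marker covariate 1, 2 and 0 members and 478, 249 and 298 genes, and with root markers without PYK10 (chosen after seeing the data) 1 member and 359 genes between the silver forms. The causes were not tested.

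Signs turned only for values that were not called. With AgNPs against CK, CYP81F2 ranged from -0.71 to 1.03 over left-out libraries and was -1.12 without AgNPs 1 and CK 3, -1.18 with root markers and -0.42 without PYK10; MYB51 ranged from -0.32 to 1.27 and was -0.66, -0.79 and -0.03. With Ag+ against CK, MYB51 ranged from -1.18 to 0.45. Between the silver forms, MYB34 ranged from -0.08 to 0.22 and was -0.08 without AgNPs 1 and CK 3, -0.40 with heat shock and -0.16 with root markers without PYK10; CYP71A12 ranged from -0.91 to 0.47 and CYP79B2 from -0.07 to 0.35. With heat shock, CYP71A12 was 0.48, CYP79B2 -0.20, CYP79B3 0.32, PAD3 -0.51 and SUR1 -0.09, and the summed CYP79B copies were at -0.03. Of 619 member values under the alternatives, 526 kept their direction and side of the threshold, 36 lost a call and 29 gained one. Most of the 619 belong to tests not called in the main fit, which could not lose a call. With each library left out, the calls with Ag+ held in 5 (CYP79B2), 6 (CYP79B3) and 5 (CYP71A12) of 9 fits. Those with AgNPs held in 6 (CYP79B2), 5 (CYP83B1) and 3 (CYP71A12) of 9.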
